A study of Mus musculus with 2 samples.

Results

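Dividing cells were described in 2 libraries of single lung cells, 1 taken 6 hours after hepatic ischemia-reperfusion (HIR) and 1 after a sham operation. Members were chosen by their raw counts of Mki67 and Top2a. A barcode was taken as cycling when the pair summed to 2 or more UMIs (unique molecular identifiers, a count of captured RNA molecules), after barcodes under 200 genes or over 20% mitochondrial UMIs had been set aside. That rule found 303 members of 18031 kept barcodes, 123 of 8593 in the HIR library and 180 of 9438 in the sham library. HIR is an injury of the liver by stopped and returning blood flow, and the lung was sampled as a distant organ. Per the labels, both libraries came from lungs of wild-type mice, and the sham library has no stated time. The labels do not say how many animals a library holds or how old they were. The lungs were minced, digested with collagenase, elastase and DNase, and treated with a red cell lysis buffer, so the shares below are shares of recovered barcodes. All 32883 features of the files carry rat gene identifiers, while the labels name the mouse, and gene symbols are used as the files give them. With 1 library per group there was no replicate and no test, and every interval below is a 95% interval of counting error alone.

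A dividing cell first licenses its replication origins with the MCM helicase, copies its DNA in S phase, and then condenses its chromosomes and builds a spindle in G2 and mitosis. Mki67 encodes the Ki-67 protein that coats mitotic chromosomes, and Top2a encodes the topoisomerase that untangles copied DNA. Their RNAs are highest late in the cycle, so a rule built on them reaches late S, G2 and mitotic cells more readily than cells early in S phase. In the adult lung most structural cells rest, while alveolar macrophages keep their number in part by dividing in place. Genes of late division are known to share promoter elements, which are CCAAT boxes, bound by NF-Y, and the cell cycle genes homology region (CHR), bound by MuvB complexes. Genes of S phase are known as targets of the E2F factors.

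The promoters of the 2 genes that chose the members are shown, with those of Cdk1, the mitotic kinase, and Mcm6, a subunit of the replicative helicase, as 1 late and 1 early gene of the cycle. Each run covers 250 bases before to 50 bases after the gene's start, from RefSeq on the mouse build GRCm38.p6, 5′ to 3′ on the strand of the gene. Capitals mark 3 motifs, each searched on both strands. They are the CCAAT box, a form of the CHR spelled TTTGAA, and a form of the E2F site spelled TTTGGCGC. No marked base belongs to more than 1 match. The sequences are those of the labelled species and were joined to the files by gene symbol.
Mki67, chr7:135716330-135716629, minus strand: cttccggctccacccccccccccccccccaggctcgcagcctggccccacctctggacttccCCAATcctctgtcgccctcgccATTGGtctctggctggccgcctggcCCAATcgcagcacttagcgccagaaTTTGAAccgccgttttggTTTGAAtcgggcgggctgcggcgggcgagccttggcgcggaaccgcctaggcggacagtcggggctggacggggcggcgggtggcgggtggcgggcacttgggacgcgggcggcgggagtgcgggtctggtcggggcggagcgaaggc
Top2a, chr11:99024140-99024439, minus strand: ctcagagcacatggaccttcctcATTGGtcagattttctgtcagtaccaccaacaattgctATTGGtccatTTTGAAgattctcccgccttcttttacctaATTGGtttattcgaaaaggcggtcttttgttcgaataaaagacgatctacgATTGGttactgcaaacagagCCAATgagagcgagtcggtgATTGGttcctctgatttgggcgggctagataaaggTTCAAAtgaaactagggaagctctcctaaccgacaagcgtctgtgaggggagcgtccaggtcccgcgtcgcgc
Cdk1, chr10:69352863-69353162, minus strand: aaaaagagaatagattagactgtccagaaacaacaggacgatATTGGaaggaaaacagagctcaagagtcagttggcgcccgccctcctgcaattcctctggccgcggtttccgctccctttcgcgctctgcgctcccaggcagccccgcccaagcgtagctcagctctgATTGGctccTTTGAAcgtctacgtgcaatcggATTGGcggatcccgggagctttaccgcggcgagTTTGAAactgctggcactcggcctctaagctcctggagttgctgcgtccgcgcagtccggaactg
Mcm6, chr1:128359656-128359955, minus strand: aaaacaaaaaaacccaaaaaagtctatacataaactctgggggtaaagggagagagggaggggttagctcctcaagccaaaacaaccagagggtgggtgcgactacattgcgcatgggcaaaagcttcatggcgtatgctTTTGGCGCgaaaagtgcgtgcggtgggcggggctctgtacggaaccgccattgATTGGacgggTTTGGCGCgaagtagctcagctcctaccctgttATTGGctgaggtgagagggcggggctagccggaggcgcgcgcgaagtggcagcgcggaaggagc
The Mki67 window held 3 CCAAT and 2 TTTGAA matches, the Top2a window 6 and 2, and the Cdk1 window 3 and 2, with no TTTGGCGC in these windows. The Mcm6 window held 2 CCAAT and 2 TTTGGCGC matches and no TTTGAA. Of the 52 genes of the G2/M list used below, which does not hold Mki67 or Top2a, 45 had a promoter in the RefSeq table, and of the 43 S phase genes 31 did. TTTGAA was present in 30 of the 45 G2/M promoters (66.7%), in 5 of the 31 S phase promoters (16.1%) and in 4893 of all 27025 promoters (18.1%). CCAAT was present in 75.6% of the G2/M promoters, 71.0% of the S phase promoters and 37.9% of all promoters. TTTGGCGC was present in 2.22% of the G2/M promoters, 16.1% of the S phase promoters and 0.537% of all promoters. A match is a stretch of letters in this window and not a measured binding site.

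Cycling barcodes made up 1.43% of the HIR library (1.19 to 1.71%) and 1.91% of the sham library (1.64 to 2.20%), an HIR to sham ratio of 0.751 (0.598 to 0.942). The deposited files held 50801778 UMIs over 9499 barcodes for HIR and 59566745 UMIs over 10719 barcodes for sham. Members were the deep barcodes of both libraries. They held a median of 16600 UMIs in HIR and 14412 in sham, against 3188 and 3545 in the other kept barcodes of HIR and sham. Scrublet, a doublet caller, marked 18 of the 123 HIR members (14.6%) and 42 of the 180 sham members (23.3%), against 7.77% and 9.15% of all kept barcodes of HIR and sham. With the marked barcodes left out the ratio of shares was 0.823 and its interval, 0.640 to 1.06, held 1. The interval also held 1 when 3 UMIs of the rule genes were asked (0.797, 0.622 to 1.02). The libraries shared 24 barcode sequences, and none of these was a member.

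The members took up nearly all of the RNA of the rule genes, which is a description of the rule and not a finding. They held 88.1% of the Mki67 UMIs and 97.4% of the Top2a UMIs of the kept HIR barcodes, and 86.6% and 96.9% of those of the kept sham barcodes. Both genes were present in 77 HIR members and 128 sham members. Mki67 stood alone in 44 HIR members and 48 sham members, and Top2a alone in 2 and 4. A member held between 2 and 89 UMIs of the pair in HIR (median 7) and between 2 and 72 in sham (median 10). At the threshold, 17 HIR and 34 sham barcodes held exactly 2 UMIs, and 172 HIR and 251 sham barcodes just outside it held 1.

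The remaining genes of the cycle, which the rule did not read, were checked against the label. CPM below are UMIs of a gene per 1000000 UMIs of the barcodes it is summed over. All 43 listed S phase genes and all 50 listed G2/M genes with a match in the files had a higher CPM in members than in the other kept barcodes, in HIR and in sham. The S phase list summed to 2705 CPM in HIR members and 641 CPM in other HIR barcodes, a 4.22-fold difference, and to 2842 CPM in sham members and 625 CPM in other sham barcodes, a 4.55-fold difference. The G2/M list summed to 9521 CPM in HIR members and 1206 CPM in other HIR barcodes (7.90-fold), and to 10487 CPM in sham members and 1197 CPM in other sham barcodes (8.76-fold). The G2/M level was higher in barcodes with more rule UMIs. HIR barcodes with exactly 2 UMIs held 1502 CPM of the G2/M list and those with 10 or more held 13473 CPM, and the same 2 bins of the sham library held 3311 and 12247 CPM. The S phase list did not follow this throughout. It stood at 1567, 2429 and 3129 CPM in HIR barcodes with 2, with 3 to 9 and with 10 or more rule UMIs, and at 1669, 3107 and 2946 CPM in the same bins of sham. Of the G2/M list, HIR barcodes with 1 UMI, just outside the rule, held 1257 CPM, and those with none 1204 CPM. Sham barcodes with 1 UMI held 1534 CPM of the G2/M list, and those with none 1179 CPM.

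By the 6 lineage genes, leukocytes made up most of the cycling barcodes in both libraries. A gene counted for a barcode when its CPM there was at least its pooled CPM in that library. Ptprc, which encodes the leukocyte phosphatase CD45, counted in 61.8% of HIR members and 57.2% of sham members. Taken as lineages, Ptprc without another of the genes held 32 HIR and 53 sham members, Nkg7, a granule gene of killer lymphocytes, 25 HIR and 30 sham members, and Cd79a, a chain of the B cell receptor complex, 16 HIR and 25 sham members. S100a8, the calprotectin gene of neutrophils and monocytes, marked 10 HIR and 2 sham members. Cdh5, the cadherin of endothelial junctions, marked 5 HIR and 17 sham members, and Col3a1, a fibrillar collagen gene of stroma, 1 HIR and 2 sham members. The Nkg7, Cd79a and S100a8 lineages were taken with or without Ptprc. A mixed call was given to 6 HIR and 12 sham members. It needed more than 1 of the genes besides Ptprc, or Ptprc together with Cdh5 or Col3a1. None of the 6 genes counted in 28 HIR and 39 sham members.

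Within each of these lineages the Nkg7 barcodes cycled most often. Of the Nkg7 barcodes 11.7% were cycling in HIR (7.70 to 16.8%) and 14.1% in sham (9.71 to 19.5%). The share was 3.06% in HIR and 3.84% in sham for Ptprc alone, and 2.90% in HIR and 2.76% in sham for Cd79a. It was 0.718% in HIR and 0.513% in sham for S100a8, 0.280% in HIR and 0.787% in sham for Cdh5, and 0.0540% in HIR and 0.0795% in sham for Col3a1. The HIR to sham ratio of these shares left out 1 only for Cdh5 (0.356, 0.131 to 0.962), which rests on 5 HIR and 17 sham barcodes, and that interval held 1 without the doublet calls (0.402, 0.130 to 1.25). The S100a8 barcodes were the shallow ones, with a median of 2373 UMIs in HIR and 1428 in sham outside the members. S100a8 was also present in barcodes of other types. In endothelium-like barcodes, which should lack it, 52.3% in HIR (median depth 2792 UMIs) and 8.52% in sham (median depth 3081 UMIs) held at least 1 S100a8 UMI, so a UMI of it alone marks no lineage.

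Because 1 gene can mislead in deep barcodes, members were also classed by marker panels of 13 cell types, a barcode taking the class with the most markers at 2 times their mean pooled level and needing at least 3. This assigned 105 HIR and 150 sham members, of which 20 HIR and 28 sham members reached exactly 3 markers. In 6 HIR and 13 sham members a second panel also reached 3, and their class is less firm. Alveolar macrophage-like members were the largest class in both libraries, with 47 HIR members (38.2% of all HIR members, 29.6 to 47.4%) and 36 of the 180 sham members (14.4 to 26.6%). Their markers were clear. Plet1 stood at 842 CPM in HIR and 1063 CPM in sham alveolar macrophage-like members, against 41.6 and 54.2 CPM in the other members of HIR and sham. Fabp4, a lipid carrier, stood at 1922 CPM in HIR and 1663 CPM in sham members of the class, and Pparg, the factor of alveolar macrophage identity, at 191 CPM in HIR and 214 CPM in sham members. Marco and Chi3l3 were listed at 0 in all of them.

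The other leukocyte classes were smaller. NK cell-like members numbered 9 in HIR and 19 in sham, with Ncr1, an activating NK receptor, detected in each of them. Klrd1 and Prf1 of the panel were also detected in each, Klrb1 and Gzmb in 0, and Eomes in 1 HIR and 0 sham members. Since a class needs 3 markers of its panel, detection of panel genes is largely a description of the class rule. T cell-like members numbered 10 in HIR and 17 in sham, each with Cd3d, Cd3e and Cd3g of the T cell receptor complex. Interstitial macrophage-like members, which carried the complement genes C1qa, C1qb and C1qc throughout, numbered 3 in HIR and 13 in sham. B or plasma cell-like members numbered 1 in HIR and 13 in sham. In sham this class included 8 barcodes with Mzb1, a gene of antibody-secreting cells, and 4 with Jchain, the joining chain of secreted antibodies. Monocyte- or neutrophil-like members numbered 13 in HIR and 0 in sham. Dendritic cell-like members, with the cross-presenting cell markers Xcr1 and Clec9a, numbered 1 in HIR and 2 in sham, and erythroid-like members, with hemoglobin and Alas2, 3 in HIR and 4 in sham.

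Among structural cells, endothelium-like members numbered 6 in HIR and 23 in sham, epithelium-like members 10 in HIR and 14 in sham, and stroma-like members 2 in HIR and 8 in sham. The endothelium-like members expressed Plvap at 4480 CPM in HIR and 4643 CPM in sham, and none held a UMI of Prox1, the lymphatic factor. Acta2 and Myh11, contractile genes of smooth muscle, were each detected in both HIR stroma-like members and in 6 of the 8 in sham. The epithelium-like members were mostly of the alveolar type 2 kind by Sftpc, the surfactant protein C gene, whose median per member was 127882 CPM in HIR and 125200 CPM in sham. In 2 of the 10 HIR members and 0 of the 14 sham members Scgb1a1, the club cell secretoglobin, exceeded Sftpc, reaching 404664 CPM in HIR against at most 12848 CPM in sham.

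**Figure D1:**
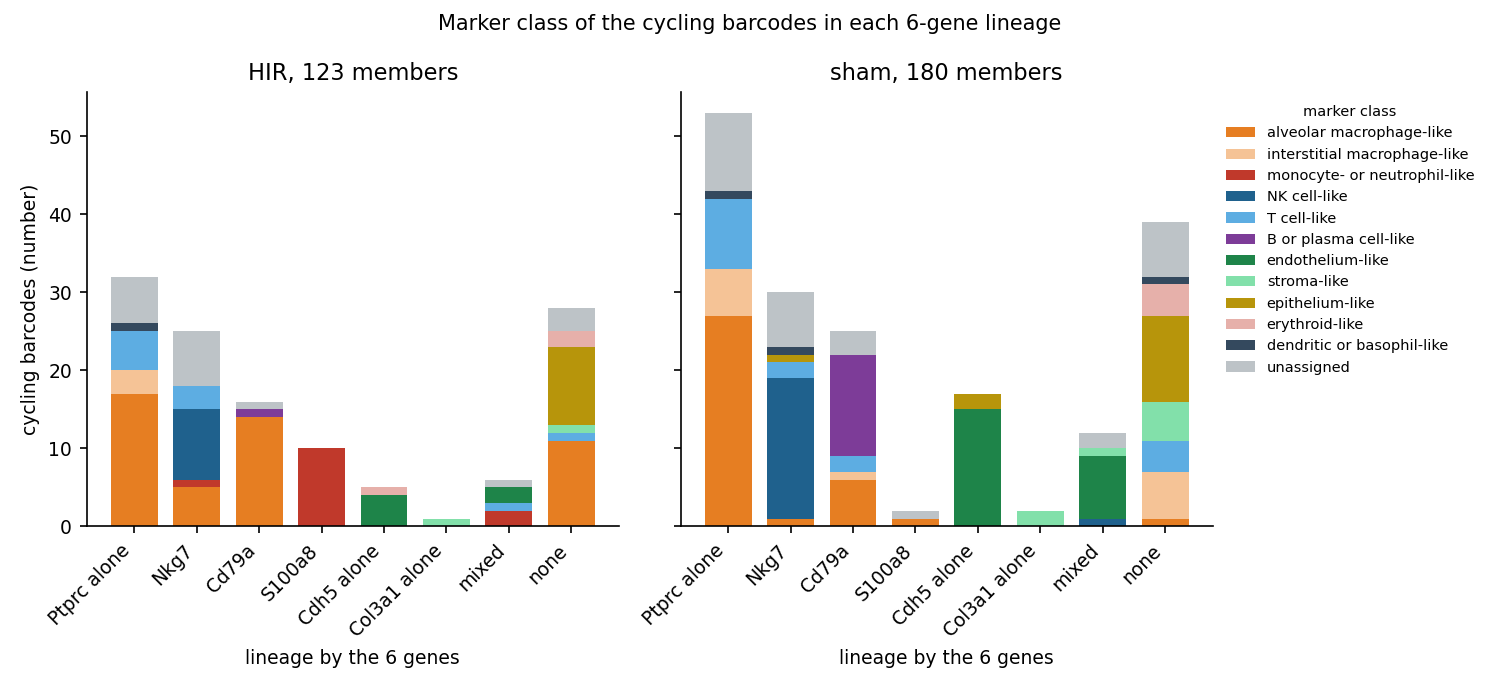
Number of cycling barcodes (vertical axis) in each lineage called by the 6 genes (horizontal axis), HIR left and sham right, with bars stacked by marker class. The Cd79a bar is mostly alveolar macrophage-like in HIR (14 of 16) and mostly B or plasma cell-like in sham (13 of 25).

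The panels and the single genes gave different pictures for Cd79a. Of the 16 HIR members called by Cd79a, 14 were alveolar macrophage-like and 1 was B or plasma cell-like, while of the 25 in sham 6 were alveolar macrophage-like and 13 B or plasma cell-like. The alveolar macrophage-like ones held at most 3 Cd79a UMIs in HIR and 5 in sham, and 9 of the 14 in HIR and 1 of the 6 in sham held a single UMI, in barcodes of 8411 to 45193 UMIs in HIR and 19740 to 40368 in sham. Cd79a was not particular to cycling macrophages. Over all alveolar macrophage-like barcodes, cycling or not, 23.6% in HIR and 26.1% in sham held a Cd79a UMI, against 1.37% of HIR and 2.81% of sham epithelium-like barcodes, which were also deep (median 10150 UMIs in HIR and 12249 in sham, against 20355 and 18881 in the macrophages of HIR and sham). Its partner Cd79b did not share this. Alveolar macrophage-like barcodes held 130 Cd79a and 35 Cd79b UMIs in HIR and 163 and 26 in sham, while B or plasma cell-like barcodes held 1134 Cd79a and 3006 Cd79b UMIs in HIR and 1736 and 4769 in sham. The HIR to sham ratio of the Cd79a cycling share was 1.05 (0.565 to 1.95) from 1 UMI on and 0.440 (0.179 to 1.08) when 2 Cd79a UMIs were asked.

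Among the classes with at least 50 barcodes in each library, the cycling share was highest in alveolar macrophage-like and NK cell-like barcodes. Of the alveolar macrophage-like barcodes 11.5% were cycling in HIR (8.61 to 15.1%) and 8.31% in sham (5.89 to 11.3%), and of the NK cell-like 10.7% in HIR (5.02 to 19.4%) and 18.3% in sham (11.4 to 27.1%). Interstitial macrophage-like barcodes had 1.95% in HIR and 7.60% in sham, and erythroid-like barcodes 5.45% in HIR and 2.12% in sham. T cell-like barcodes had 3.89% in HIR and 4.33% in sham, and epithelium-like barcodes 1.71% in HIR and 2.19% in sham. Stroma-like barcodes had 0.131% in HIR and 0.357% in sham. The classes differ in depth, so each barcode was also thinned to 2000 UMIs and asked for 1 UMI, which left out 1740 HIR and 1599 sham barcodes. The alveolar macrophage-like share was then 7.38% in HIR and 6.43% in sham and the NK cell-like share 9.52% in HIR and 14.6% in sham, again the highest among those classes. The endothelium-like share was 0.878% in HIR and 2.31% in sham after thinning, and the stroma-like share 0.784% in HIR and 1.08% in sham.

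Between the libraries, alveolar macrophage-like, monocyte- or neutrophil-like and erythroid-like barcodes had the higher cycling share in HIR, and the other classes with members in both libraries the lower one. The HIR to sham ratio was 1.39 for alveolar macrophage-like barcodes (0.920 to 2.10), 1.56 (1.01 to 2.40) with the doublet calls left out and 1.15 (0.692 to 1.90) after thinning. In endothelium-like barcodes, 6 of 2117 were cycling in HIR (0.283%) and 23 of 2511 in sham (0.916%), a ratio of 0.309 (0.126 to 0.758). Thinning, which asks for only 1 rule UMI, left that ratio at 0.381 (0.210 to 0.689), from 14 HIR and 47 sham barcodes. By the rule genes, Top2a was present in 2 of the 6 HIR and 10 of the 23 sham endothelium-like members. Their median of S phase and G2/M UMIs together was 91.5 in HIR and 37 in sham, and 4 sham members held fewer than 10. Scrublet marked 3 of the 6 HIR and 11 of the 23 sham endothelium-like members, and 2 of the 3 and 6 of the 11 held Ptprc UMIs, against 0 of the 3 HIR and 3 of the 12 sham members that were not marked. Without the marked barcodes the ratio was 0.285, with an interval that held 1 (0.0804 to 1.01), as it did when 3 rule UMIs were asked (0.365, 0.119 to 1.12). The ratio was 0.256 for interstitial macrophage-like barcodes (0.0744 to 0.882) and 0.117 for B or plasma cell-like barcodes (0.0153 to 0.889), from 3 and 1 HIR members. After thinning these became 0.479 (0.154 to 1.49) and 0.468 (0.197 to 1.11). NK cell-like (0.586, 0.280 to 1.23), T cell-like (0.900, 0.419 to 1.93) and epithelium-like barcodes (0.781, 0.350 to 1.75) had intervals that held 1.

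**Figure D2:**
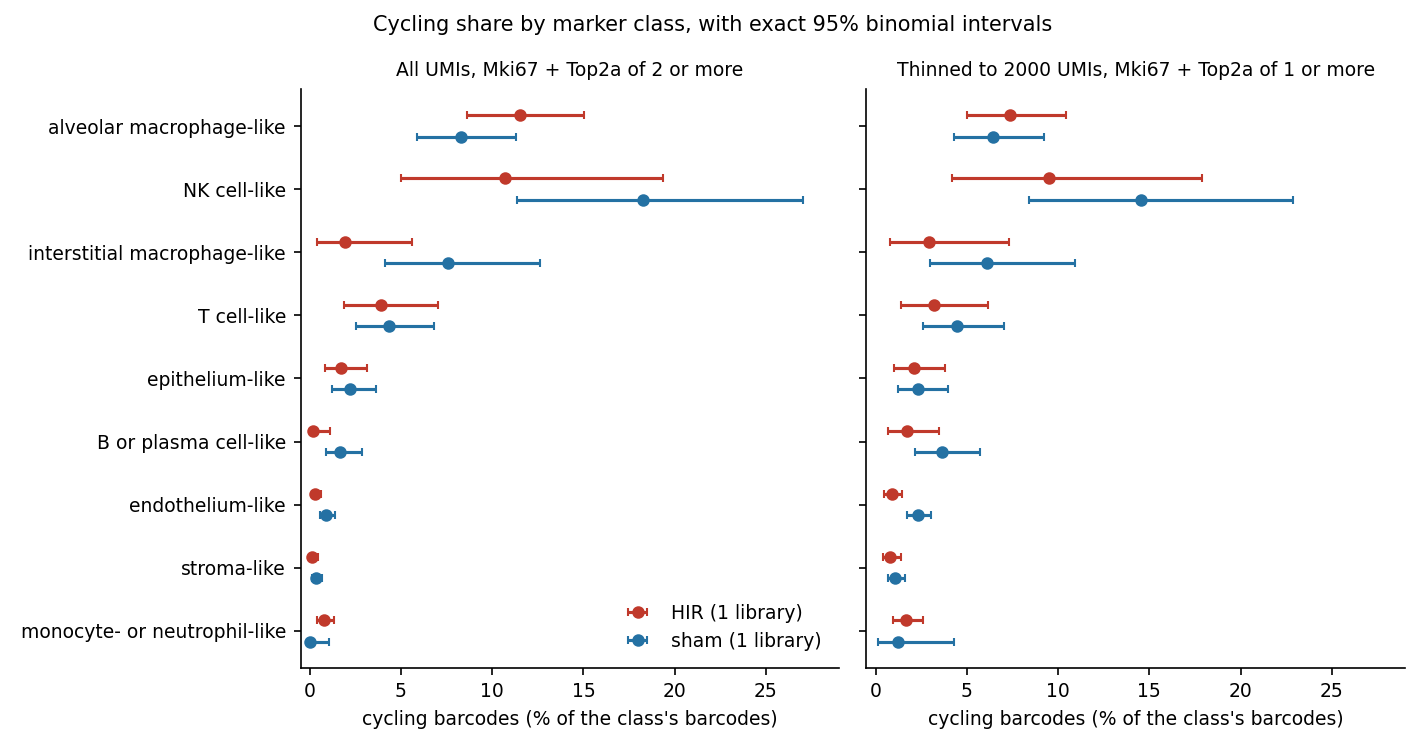
Percent of the barcodes of each marker class (rows) that were cycling, HIR above sham, with exact binomial intervals, from all UMIs (left) and after thinning every barcode to 2000 UMIs (right). The alveolar macrophage-like and NK cell-like classes stand highest, and the endothelium-like share is lower in HIR in both panels.

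The monocyte- or neutrophil-like members of HIR had the lowest summed G2/M level of the HIR classes with members. They were 13 of 1639 barcodes of that class in HIR (0.793%), against 0 of 355 in sham. The sham count allows a share of up to 0.845% at 3 counts, and of up to 1.03% by the exact interval. By the rule genes, given as a description, none held more than 6 UMIs and 1 of the 13 held Top2a, and the 3 erythroid-like HIR members likewise held at most 5 with Top2a in 0. Of the 13, 6 held fewer than 10 UMIs of the S phase and G2/M lists together, against 0 of the 47 alveolar macrophage-like members of HIR, and only 27 of the 50 G2/M genes stood higher in them than in the other barcodes of their class. Of the S phase genes 39 of 43 stood higher in them, and that list summed to 2199 CPM in these members and 539 CPM in the other barcodes of the class, a 4.08-fold difference. S phase genes took 43.3% of their cycle UMIs when pooled, with a median of 24.4% per member. Of the 322 S phase UMIs, single members held 129, 92 and 62, and Scrublet marked the one with 129. The pooled S phase values therefore rest mostly on these members. Their G2/M list summed to 2881 CPM, against 9133 CPM in alveolar macrophage-like members of HIR. The member with the most rule UMIs held 6 of Mki67, 92 of the S phase list and 168 of the G2/M list, and it also held 7 Nkg7 UMIs. Mpo, Elane and Prtn3, genes of dividing granulocyte precursors in bone marrow, were detected in at most 1 of the 13. The other neutrophil precursor markers of the panel were Camp, Ltf and Ngp. Camp was detected in 11 of the 13 (191 CPM, against 49.1 CPM in the other HIR members), and Ltf and Ngp in 0.

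The balance between S phase and later stages was nearly the same over all members, and differed within classes. S phase genes took 22.1% of the S phase and G2/M UMIs in HIR members (21.7 to 22.6%) and 21.3% in sham members (20.9 to 21.7%). Among alveolar macrophage-like members the S phase share was 25.6% in HIR (24.9 to 26.3%) and 21.2% in sham (20.5 to 21.8%). Single members ranged from 3.33 to 66.3% in HIR (median 29.4%) and from 4.00 to 67.0% in sham (median 20.2%), so the libraries overlap over nearly their whole range. S phase genes outnumbered G2/M genes in UMIs in 16 of the 47 HIR and 6 of the 36 sham members. As a mean over members, the share was 34.2% in HIR and 27.4% in sham. T cell-like members had the opposite order, with 15.3% in HIR (14.2 to 16.5%) and 26.2% in sham (24.8 to 27.6%), from 10 and 17 members. The endothelium-like members had 14.3% in HIR and 22.8% in sham. Epithelium-like members had the lowest share of the classes with at least 10 members in both libraries, 11.9% in HIR and 13.9% in sham. Median rule UMIs per member were 9 in HIR and 18 in sham for alveolar macrophage-like members. For T cell-like members they were 25.5 in HIR and 7 in sham. A link between rule UMIs and the S phase share was not tested.

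**Figure D3:**
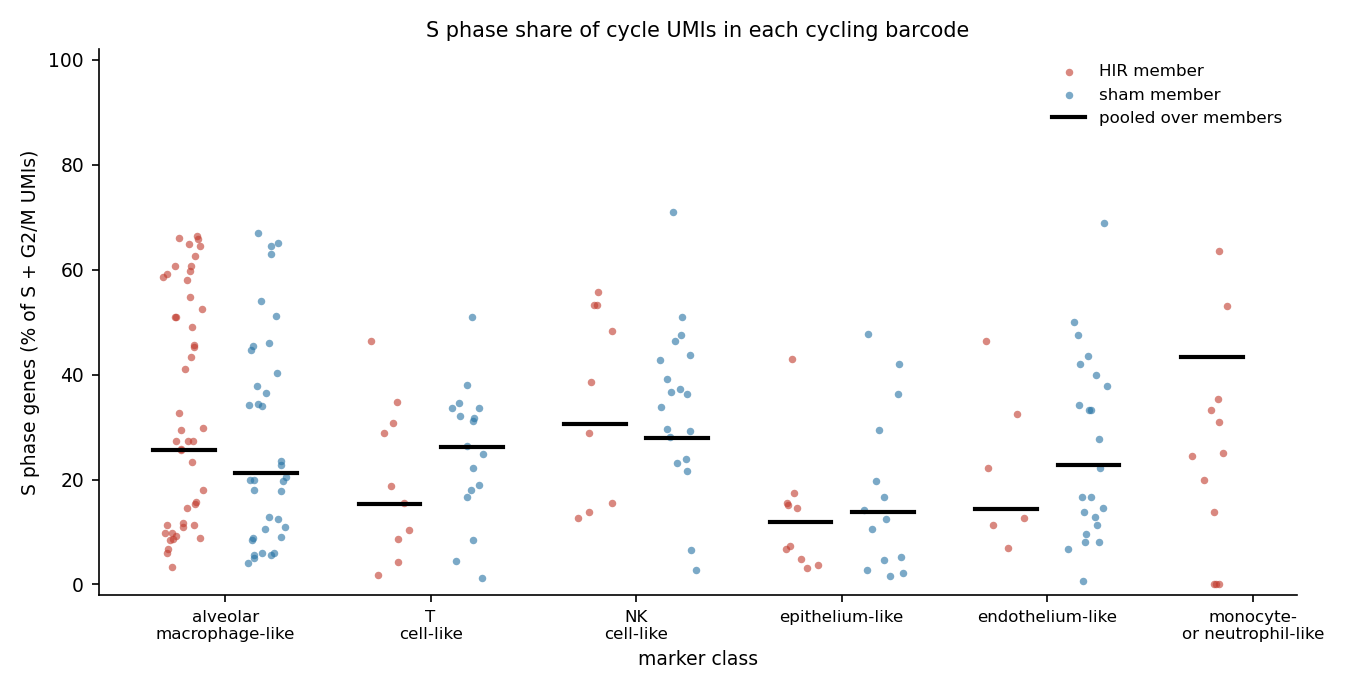
S phase genes as a percent of the summed S phase and G2/M UMIs (vertical axis) in each cycling barcode (points) of 6 marker classes, HIR left of sham, with the value pooled over members as a bar and no sham member in the monocyte- or neutrophil-like class. Alveolar macrophage-like members spread from 3.33 to 66.3% in HIR and from 4.00 to 67.0% in sham, and the pooled bars lie at 25.6% and 21.2%.

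Levels of the genes of the cycle differed little between HIR and sham over all members. Genes with at least 20 CPM in either library numbered 5839, with a median log2 ratio of HIR to sham of -0.04 after 10 CPM was added to both. Of these, 1.22% were over 2-fold higher in HIR and 3.84% over 2-fold lower. No measured member of the S phase or G2/M list was over 2-fold apart in either direction. The S phase list had 11 of 33 measured genes higher in HIR (median -0.08), and the G2/M list 12 of 42 (median -0.09). Mki67 and Top2a are left out of the G2/M list, but its levels come from the cells those genes chose.

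The steps of the cycle were then taken in order. Origin licensing genes were split evenly, with 5 of 10 higher in HIR (median -0.02). Mcm6 stood at 91.1 CPM in HIR members and 84.0 CPM in sham members, and geminin, Gmnn, the inhibitor of licensing, at 156 CPM in HIR and 175 CPM in sham. Replication and nucleotide genes had 4 of 11 higher (median -0.06). Dut, the dUTPase that keeps uracil out of DNA, stood at 387 CPM in HIR and 514 CPM in sham, a ratio of 0.754 (0.695 to 0.817). Mitotic cyclins and kinases had 1 of 9 higher (median -0.07). Their strongest member was Cdk1, at 382 CPM in HIR and 435 CPM in sham (ratio 0.878, 0.808 to 0.955). Spindle and kinesin genes had 6 of 13 higher (median -0.02), and centromere and kinetochore genes 1 of 10 higher (median -0.10). All 5 genes around the anaphase promoting complex were lower in HIR (median -0.24). Ube2c, its ubiquitin donor, stood at 571 CPM in HIR and 687 CPM in sham (ratio 0.831, 0.776 to 0.889), and Fbxo5, its inhibitor, at 83.3 CPM in HIR and 115 CPM in sham (ratio 0.722, 0.606 to 0.860). Of the chromatin and tubulin genes 7 of 8 were lower in HIR (median -0.15), and Hmgn2, a nucleosome-binding protein, was the higher one, at 1526 CPM in HIR and 1243 CPM in sham (ratio 1.23, 1.17 to 1.28).

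Several genes that hold the cycle back had smaller HIR to sham ratios in members than in the other barcodes. Gadd45b, a stress-induced brake, stood at 259 CPM in HIR and 457 CPM in sham members (ratio 0.568, 0.516 to 0.624), and at 885 CPM in HIR and 665 CPM in sham in the other barcodes (ratio 1.33). Gadd45a had a ratio of 1.17 in members and 2.03 in other barcodes. Btg2, an antiproliferative gene, stood at 751 CPM in HIR and 882 CPM in sham members, against 1411 CPM in HIR and 1182 CPM in sham in the other barcodes. Cdkn1a, the CDK inhibitor p21, was higher in HIR in both, with 107 CPM in HIR and 64.6 CPM in sham members (ratio 1.66) and a ratio of 2.27 in the other barcodes. The list as a whole had 4 of 12 members higher in HIR (median -0.13). Members and other barcodes differ in cell type, since monocyte- or neutrophil-like barcodes were 1639 of the 8593 kept in HIR and 355 of the 9438 in sham. Within the alveolar macrophage-like class the ratio in members and in other barcodes was 0.793 and 1.09 for Gadd45b, 0.818 and 1.06 for Btg2, and 0.737 and 1.47 for Cdkn1a.

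Glucocorticoid response and NF-kB target genes are both common readouts of systemic injury. Over all genes measured 43.2% were higher in HIR members. Of the glucocorticoid response genes 8 of 11 were higher in HIR members (median 0.23), with Cebpd, a transcription factor gene, at 96.4 CPM in HIR and 55.8 CPM in sham (ratio 1.73, 1.42 to 2.11). In the other barcodes its ratio was 2.78. Mt1, a metallothionein gene, had a ratio of 1.42 in members and 1.25 in the other barcodes. Of the NF-kB targets 3 of 9 were higher in HIR members (median -0.10), and as a mean over members that median was 0.07. Nfkbia, the feedback inhibitor of NF-kB, stood at 751 CPM in HIR and 806 CPM in sham members (ratio 0.931), while the other barcodes held 1257 CPM in HIR and 575 CPM in sham (ratio 2.19). Of the growth factor receptors 4 of 17 were measured. Kdr, the endothelial VEGF receptor, stood at 15.9 CPM in HIR and 54.2 CPM in sham members (ratio 0.294, 0.202 to 0.418), beside the 6 HIR and 23 sham endothelium-like members.

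Among alveolar macrophage-like members early genes of the cycle were mostly higher and late genes mostly lower in HIR. The median over the 5438 genes measured there was -0.01, with 1.43% over 2-fold higher in HIR and 2.61% over 2-fold lower. The S phase list had 27 of 33 genes higher in HIR (median 0.15) and the G2/M list 32 of 43 lower (median -0.17). Members of this class were chosen by 2 late genes and held a median of 9 rule UMIs in HIR and 18 in sham. Whether the list differences follow from this was not tested. Origin licensing genes had 9 of 10 higher (median 0.33). Mcm2 stood at 59.7 CPM in HIR and 36.5 CPM in sham members of the class (ratio 1.64, 1.10 to 2.48), Mcm5 at 88.3 and 62.6 CPM in HIR and sham (ratio 1.41, 1.03 to 1.94), and Cdt1, the factor that loads the helicase, at 29.4 CPM in HIR and 12.2 CPM in sham (ratio 2.42, 1.25 to 4.98). Tk1, thymidine kinase, stood at 70.3 CPM in HIR and 45.8 CPM in sham (ratio 1.54, 1.07 to 2.23). Late genes stood lower. Cdk1 stood at 487 CPM in HIR and 638 CPM in sham (ratio 0.762, 0.682 to 0.852), Ube2c at 692 CPM in HIR and 938 CPM in sham (ratio 0.738, 0.672 to 0.809), and Cenpf, a kinetochore gene, at 306 CPM in HIR and 437 CPM in sham (ratio 0.701, 0.610 to 0.804). Ccnd1, the G1 cyclin, had a ratio of 0.491 in members (0.346 to 0.690) and 0.404 in the other alveolar macrophage-like barcodes.

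**Figure D4:**
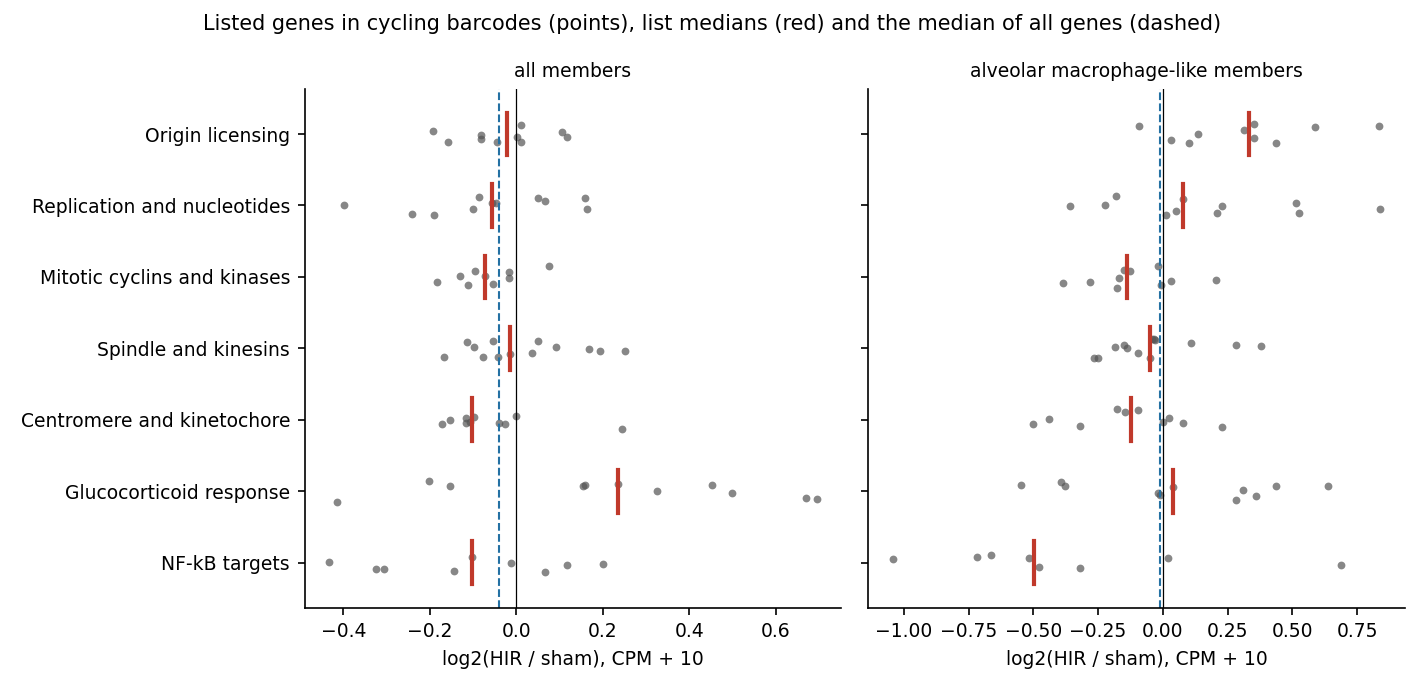
Log2 ratio of HIR to sham CPM, after 10 CPM was added, for each measured gene of 7 lists (points) over all members (left) and alveolar macrophage-like members (right), with list medians in red and the median of all genes dashed. In alveolar macrophage-like members the median is 0.33 for origin licensing and -0.50 for NF-kB targets.

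NF-kB targets were lower in HIR in cycling alveolar macrophage-like barcodes. Of 8 measured, 6 were lower (median -0.50). Cxcl2, a neutrophil-attracting chemokine gene, stood at 2154 CPM in HIR and 3550 CPM in sham members (ratio 0.607, 0.577 to 0.638), against 2677 CPM in HIR and 2971 CPM in sham in the other barcodes of the class (ratio 0.901). Cxcl1, a chemokine of the same kind, had a ratio of 0.627 in members and 0.966 in the others. Icam1, the integrin ligand, stood at 50.7 CPM in HIR and 115 CPM in sham members (ratio 0.441, 0.320 to 0.603), with 0.780 in the others, and Nfkbia at 765 CPM in HIR and 1070 CPM in sham members (ratio 0.715, 0.655 to 0.780), with 0.973 in the others. Ccl2, which attracts monocytes, went the other way, at 66.2 CPM in HIR and 37.4 CPM in sham members (ratio 1.77, 1.20 to 2.66), while the other alveolar macrophage-like barcodes held 66.6 CPM in HIR and 136 CPM in sham (ratio 0.489). The glucocorticoid response list was split in this class, 6 of 11 higher (median 0.04), with Fkbp5, a chaperone of the glucocorticoid receptor, at a ratio of 1.69 (1.16 to 2.49) and Ddit4, an mTOR inhibitor, at 0.665 (0.525 to 0.840).

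In T cell-like members the cycle lists ran the other way. The G2/M list had 40 of 44 measured genes higher in HIR (median 0.65) and the S phase list 28 of 37 lower (median -0.53), where the median of all genes was -0.02. Of the glucocorticoid response genes 7 of 8 were higher in HIR (median 0.98). These values rest on 10 HIR and 17 sham members, which held a median of 25.5 rule UMIs in HIR and 7 in sham. In epithelium-like members 43 of 45 G2/M genes (median -0.52) and 25 of 29 S phase genes (median -0.62) were lower in HIR, where the median of all genes was -0.23. Scrublet marked 2 of the 10 HIR and 8 of the 14 sham members of that class. The glucocorticoid response list did not follow the T cell-like order there, with 2 of 11 genes higher in HIR (median -0.74). In members without a class 5 of 11 were higher (median -0.06), where the median of all genes was 0.05.

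Outside the lists, the genes furthest apart over all members included products of neutrophils, macrophages and endothelium. Of the 1570 genes that reached 100 CPM in 1 of the libraries and 50 UMIs in all, 1.08% were over 2-fold higher in HIR with an interval that left out 1, and 3.25% lower. Slpi, a secreted inhibitor of neutrophil elastase, stood at 101 CPM in HIR and 4.75 CPM in sham members (ratio 21.2, 12.6 to 38.5), in 30 HIR and 3 sham members, and its ratio was 11.2 in the other barcodes. A single sham member held 80.0% of the 15 sham Slpi UMIs, and the ratio was 84.8 (28.6 to 415) without the highest members and 75.5 as a mean over members. Fcnb, a ficolin gene, stood at 266 CPM in HIR and 25.0 CPM in sham (ratio 10.6), and Serpinb1a, an inhibitor of granule proteases, at 309 CPM in HIR and 101.7 CPM in sham (ratio 3.04). Gpd1, a dehydrogenase of glycerol phosphate, stood at 109 CPM in HIR and 38.7 CPM in sham (ratio 2.81), and Apmap at 111 CPM in HIR and 51.6 CPM in sham (ratio 2.16). After the exclusions 12 genes were higher by these criteria, and the 10 with the largest ratios are named here. They also included Gpx2 (2.75), Sult1a1 (2.73), Ggh (2.13), Cxcl3 (3.49) and Wfdc2 (2.62), given as ratios of HIR to sham. For Cxcl3 1 HIR member held 66.1% of the UMIs and for Wfdc2 46.3%, and with the highest member of each library left out the ratios were 1.48 and 1.73. The interval of Cxcl3 held 1 when 3 rule UMIs were asked (1.22, 0.962 to 1.55).

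For the 3 genes furthest below 1, single sham barcodes held most of the sham UMIs. For AABR07034739.1 and AABR07060872.1, with ratios of 0.00346 and 0.00932, 1 sham member held 94.9% and 89.9% of the UMIs, and for Ccl21, a chemokine gene with a ratio of 0.0216, 1 sham member held 95.7%. Without the highest members Ccl21 had a ratio of 0.432, with an interval of 0.140 to 1.13, while AABR07034739.1 was at 0.00968 (0.00199 to 0.0285) and AABR07060872.1 at 0.0210 (0.00841 to 0.0437). Retnla, a gene of alternatively activated macrophages, stood at 64.5 CPM in HIR and 958 CPM in sham members (ratio 0.0674, 0.0570 to 0.0791), from 9 HIR and 13 sham members. A single HIR member held 55.1% of its HIR UMIs and a single sham member 45.1% of its sham UMIs. Alveolar macrophage-like members held 0 CPM of Retnla in both libraries, and its ratio in the other barcodes was 0.319. Apoe, the lipid carrier of macrophages, stood at 76.0 CPM in HIR and 470 CPM in sham (ratio 0.162), beside the 3 HIR and 13 sham interstitial macrophage-like members. Vwf, the clotting factor of endothelium, stood at 15.5 CPM in HIR and 138 CPM in sham (ratio 0.112), while its ratio in the other barcodes was 1.02. Of its 436 UMIs in sham members 192 lay in alveolar macrophage-like members, and 1 sham member held 33.5%. In HIR 1 member held 63.2% of the 38 Vwf UMIs. Endothelium-like members numbered 6 in HIR and 23 in sham. Xcl1, a chemokine gene of NK and T cells, stood at 12.7 CPM in HIR and 101 CPM in sham (ratio 0.125), in 9 HIR and 24 sham members, and its ratio in the other barcodes was 1.23. Lcn2, which binds bacterial siderophores, had a ratio of 0.206 in members and 1.95 in the other barcodes, with 73.5% of its sham UMIs in 1 member and a ratio of 0.493 in members (0.376 to 0.642) when the highest of each library was left out. LOC103694857 and LOC100134871 had ratios of 0.125 and 0.183 in members, and 0.324 and 0.313 in the other barcodes. The kinds of gene behind the LOC and AABR entries were not looked up.

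Within alveolar macrophage-like members, 0.372% of such genes were higher and 0.867% lower by the same measure. The higher ones were MGC105649, at 191 CPM in HIR and 25.2 CPM in sham (ratio 7.58, 5.08 to 11.7), Fstl3, a follistatin-like binder of activins, at 122 CPM in HIR and 40.2 CPM in sham (ratio 3.03), Clec2l (2.27), Gpd1 (2.17), Ramp3 (2.10) and Apmap (2.07). All 6 also had a ratio above 1 in the other alveolar macrophage-like barcodes, from 1.21 for Ramp3 to 6.62 for MGC105649. On the other side, Fcrla, an Fc receptor-like gene, stood at 254 CPM in HIR and 1067 CPM in sham members (ratio 0.238, 0.210 to 0.271), with 0.228 in the other barcodes of the class, and Id3, an inhibitor of helix-loop-helix factors, at 105 CPM in HIR and 239 CPM in sham (ratio 0.437), with 0.834 in the others. Ccn3 (0.383) and Hspa2 (0.431) were present in 30 or more members of each library. For Vwf (0.00911), Eln (0.0186) and Mgp (0.422) 1 sham member held 76.0%, 74.2% and 71.3% of the UMIs. For Akr1c15 (0.194), Anxa3 (0.207) and Ramp2 (0.310) 1 sham member held 47.8%, 44.0% and 55.8%. In HIR 1 member held 60% of the 25 Akr1c15 UMIs, and 1 member held 65% of the 40 Ramp2 UMIs. Akr1c15 and Ramp2 were higher in HIR in the other alveolar macrophage-like barcodes, with ratios of 1.61 (1.33 to 1.96) and 1.77 (1.54 to 2.03), while Anxa3 had 0.761 there.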

How the data were processed

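Single cells of 1 HIR and 1 sham lung library were captured on the 10x platform. The deposited values are counts of UMIs per gene and barcode, written by cellranger 5.0.0 per the file headers. The submitters' processing notes name Cell Ranger 6.0, STAR, Seurat 4.0 and mm10, while all 32883 features carry rat identifiers. The members and gene lists were chosen with earlier results of these data known. The marker class rule and the alveolar macrophage-like gene comparison were set after seeing the data, and genes named from a list were picked after their values were seen.

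UMIs were summed over members of a library and divided by their total (CPM). Ratios carry exact conditional 95% intervals, shares Clopper-Pearson intervals, and ratios of shares log-normal intervals, all for counting error only. PCR duplicates are merged by UMI. Log2 ratios had 10 CPM added, and lists used genes with 20 CPM in either library. Named genes were the 10 with the largest ratio per direction among genes with 100 CPM in either library, 50 UMIs, over 2-fold and an interval without 1. Mitochondrial, ribosomal, hemoglobin, sex-linked, antigen receptor and marker genes were left out of naming by their symbols. Entries with LOC or AABR names were not screened this way and may include genes of these kinds. Scrublet scores (scanpy 1.11.5) were ranked and the top 0.8% per 1000 barcodes marked as doublets, which stayed in unless stated. The interval code was run on counts of 5409 genes simulated with counting error alone, where 95.7% held the true ratio. That simulation has no gathering of UMIs in single members, so it cannot show how the intervals cover genes of that kind. The 9 listed symbols without a match were not analysed here. Python 3.11.15, numpy 2.4.6, scipy 1.17.1 and pandas 2.3.3 were used.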

Additional observations from a re-analysis of the deposited data

Results flagged for a closer look

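The cycling share of alveolar macrophage-like barcodes was higher in HIR than in sham (ratio 1.39), with an interval that held 1 (0.920 to 2.10). From 1 rule UMI on that ratio was 1.11 (0.815 to 1.52). The share was lower in HIR for interstitial macrophage-like (0.256), B or plasma cell-like (0.117) and endothelium-like barcodes (0.309). The interstitial macrophage-like and B or plasma cell-like ratios rest on 3 and 1 HIR members, and both intervals held 1 after thinning. The endothelium-like interval held 1 without the doublet calls. The difference between these ratios was not tested, since each library is a single sample.

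The S phase share of cycle UMIs was 4.45 percentage points higher in HIR than in sham for alveolar macrophage-like members, and the HIR minus sham difference was -10.9 points for T cell-like members. Median rule UMIs per member were 9 in HIR and 18 in sham for alveolar macrophage-like members, and 25.5 and 7 for T cell-like members. The S phase differences and their link to rule UMIs were not tested.

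For 5 named genes the interval of the HIR to sham ratio lay on opposite sides of 1 in members and in other barcodes. Over all members Wfdc2 had 2.62 in members and 0.545 in other barcodes, and Xcl1 had 0.125 in members and 1.23 in other barcodes. Lcn2 had 0.206 in members, 0.493 without its highest members, and 1.95 in other barcodes. Among alveolar macrophage-like barcodes Akr1c15 had 0.194 in members and 1.61 in the others, and Ramp2 had 0.310 in members and 1.77 in the others. For Akr1c15 1 member held 60% of the HIR and 1 member 47.8% of the sham UMIs of members. For Ramp2 these shares were 65% in HIR and 55.8% in sham. These differences were not tested.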

How the results depend on the processing

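With 1 library per group, counting intervals say nothing of the spread between animals. No paired analysis was possible because each group holds 1 library. There were 350 alternative values, of which those of the S phase share were not counted for direction. Among the rest 25 crossed to the other side of no difference, and 21 intervals of ratios came to hold 1 that had left it out. Intervals of list medians, and intervals that came to leave out 1, were not counted. From 1 rule UMI on the T cell-like ratio was 0.523, with an interval that left out 1 (0.284 to 0.963). The HIR to sham ratio of all cycling shares stayed between 0.661 and 0.823. The B or plasma cell-like ratio was 0.542 and the interstitial macrophage-like one 0.432 from 1 rule UMI on, with intervals that held 1. The S100a8 ratio, 1.40 as reported, was 0.841 with 3 rule UMIs and 0.415 after thinning, and the epithelium-like ratio was 1.41 without doublet calls. The spindle median, -0.02 as reported, was above 0 under 4 alternatives, and that of mitotic cyclins and kinases, -0.07 as reported, was 0.0017 with 3 rule UMIs. The cause of these moves was not tested. With 3 UMIs the S phase share was 21.1% in HIR and 20.8% in sham, and 24.1% in alveolar macrophage-like HIR members, and list medians were -0.026 for G2/M and -0.076 for chromatin and tubulin. With at most 10% mitochondrial UMIs it was 21.6% in HIR and 20.7% in sham. Without doublet calls it was 21.5% in HIR, and 24.6% in alveolar macrophage-like HIR members, with medians of -0.097 for licensing, 0.105 for spindle and -0.346 for NF-kB genes. As a mean over members it was 27.2% in HIR and 27.7% in sham, and in alveolar macrophage-like members 34.2% in HIR and 27.4% in sham, with medians of -0.150 for S phase, -0.136 for licensing and 0.070 for NF-kB genes. Median ratio scaling gave 0.012 for licensing. With 4 markers the S phase share of alveolar macrophage-like members was 27.0% in HIR and 21.8% in sham. With 2 Cd79a UMIs the HIR to sham ratio was 0.440 for the Cd79a cycling share and 0.418 for its share of members. Without doublet calls no B or plasma cell-like ratio was computed, nor an NK cell-like one with 4 markers.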
